A study of Mus musculus with 2 samples.

Results

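Interferons are secreted proteins that switch on a large antiviral programme in the cells they reach. Their receptors activate Janus kinases, the kinases phosphorylate STAT proteins, and STATs and interferon regulatory factors (IRFs) then bind short promoter elements of the induced genes. Many of these genes are also transcribed at a basal level in unchallenged tissue, and in the heart their products limit virus entry and replication in a muscle whose cells hardly renew. The genes described here are the mouse genes with at least 1 protein-coding transcript whose symbols start with Ifi, Gbp and a digit, Irgm, Igtp, Iigp, Oas, Isg, Mx, Irf or Stat with a digit, plus Bst2. This rule gave 84 genes of 55536 mouse gene rows, of which 21888 were nuclear protein-coding genes. Gbp2-ps, Ifi203-ps and Ifi30 matched by symbol and had no transcript typed as protein-coding, so they were not included. The rule itself uses no measured value, although earlier results of these data were known when the members were chosen. The symbol rule also takes in Irf2bp1, Irf2bp2, Irf2bpl and Isg20l2, whose names resemble those of the pathway but which are not classed as interferon-induced genes here.

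The samples were 2 total RNA libraries of whole heart. The donors were male B6CASTF1/J mice, adult at 8 to 10 months, which are F1 hybrids of the C57BL/6J and CAST strains. Replicate 1 came from animal 2 and replicate 2 from animal 4, although both libraries carry the same donor entry, so separate animals rest on the animal numbers alone. Both libraries were made from 300 ng of RNA with ribosomal RNA reduced, the strand kept and ERCC spike-in RNA added. No treatment, infection or other condition was part of the series, so no contrast between conditions and no p-value is given. Mouse genes took 42.05 M expected counts of replicate 1 and 39.98 M of replicate 2. All 6 cardiomyocyte markers lay at 1 TPM or more in both libraries (TPM is a length-corrected abundance with the same total in each library), from Ryr2 at 357.84 and 375.61 TPM to Myh6 at 6324.56 and 6950.72 TPM. In bulk tissue, fewer cells of a type and less RNA per cell cannot be told apart. In what follows ± is the SD over both libraries (n = 2), and the value of replicate 1 stands before that of replicate 2.

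The 84 genes as a group had a median near that of all nuclear protein-coding genes, with few strongly expressed members. That background includes unread genes: 5510 of 21888 had no count in either library after rounding, as had 6 of the 84 members. At 1 TPM or more in both libraries were 41 of 84 members (48.8%), against 49.1% of nuclear protein-coding genes. At 10 TPM or more in both were 7 members (8.33%), against 20.6% of nuclear protein-coding genes. The median over members was 1.14 TPM in replicate 1 and 1.06 TPM in replicate 2 (1.10 ± 0.0566), beside 1.07 and 1.01 TPM over nuclear protein-coding genes. The summed TPM of the members was 341.49 in replicate 1 and 329.41 in replicate 2. The 3 highest members, Ifitm3, Stat3 and Ifitm2, held 29.6% of that sum, and the 10 highest held 61.5%. Ifitm3 ranked 1494 among the nuclear protein-coding genes by mean TPM.

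**Figure D1:**
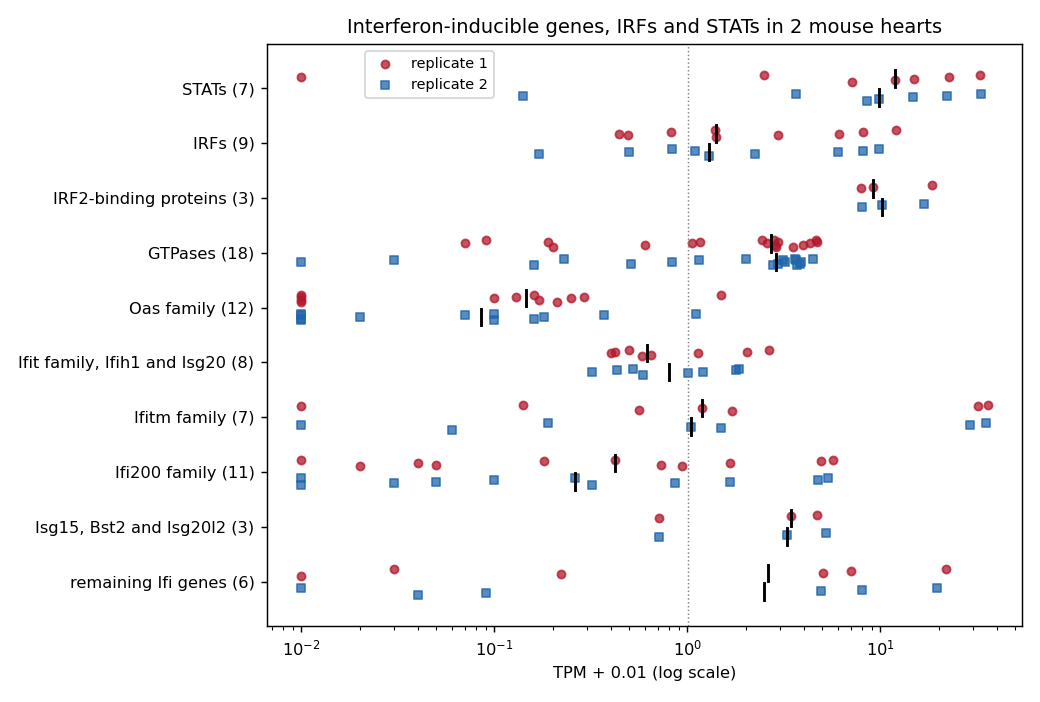
TPM plus 0.01 of each of the 84 members on a log axis, grouped by role with the number of members in brackets. Red circles are replicate 1, blue squares replicate 2, black bars the median of a group in a library, and the dotted line 1 TPM. The STATs and the IRF2-binding proteins have medians near 10 TPM, and the Oas family a median of 0.105 TPM.

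The promoter windows of 33 of 65 members hold an interferon response element. Promoter sequence was not part of the choice, but many of the symbols were given for induction by interferon. A high share is thus partly built into the choice. The interferon-stimulated response element (ISRE), bound by IRFs and by the complex of STATs with Irf9, was searched as GAAANNGAAA on both strands, overlapping matches included. RefSeq promoter windows of GRCm38.p6, which run from 250 bases before to 50 bases after a transcript start, were at hand for 65 of the 84 members. They hold a single reference sequence, and the CAST promoters of these hybrids, which may differ, were not searched. The element lay in a window of 33 of these 65 members (50.8%), against 3.99% of the 27018 genes with a window. The gamma-activated site (GAS), bound by STAT dimers, was searched as TTCNNNGAA and lay in windows of 16 of 65 members (24.6%), against 9.55% of all genes. A match describes letters in a window and is no evidence of binding, and several of these windows belong to tandem copies with similar sequence.

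Stretches of 60 bases with the matched letters in capitals follow, on the strand of the gene, chosen because they show single, doubled and shared elements and touch no annotated exon. On this count the last base before the transcript start is position -1. TTTCNNTTTC is the same element on the opposite strand. The first are Isg15, which encodes a ubiquitin-like modifier (chr4:156200856-156200915, minus strand), Bst2, encoding the virion tether tetherin (chr8:71537565-71537624, minus strand), and the immunity-related GTPases Irgm2 (chr11:58214888-58214947, plus strand) and Igtp (chr11:58199496-58199555, plus strand).
Isg15: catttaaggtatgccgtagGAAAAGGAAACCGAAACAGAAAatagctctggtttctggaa
Bst2: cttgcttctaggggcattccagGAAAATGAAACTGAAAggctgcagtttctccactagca
Irgm2: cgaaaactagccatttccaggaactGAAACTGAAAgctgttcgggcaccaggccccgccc
Igtp: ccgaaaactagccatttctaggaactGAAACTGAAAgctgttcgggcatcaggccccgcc

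Isg15 held 3 overlapping matches and Bst2 held 2. In Irgm2 and Igtp, neighbours on chromosome 11, the element stood at positions -64 to -55 in Irgm2 and -34 to -25 in Igtp. A GAS match preceded it in both, at positions -75 to -67 in Irgm2 and -45 to -37 in Igtp. Aligned end to end, the full windows of Igtp and Irgm2 were identical at 244 of 335 alignment columns (72.8%). In Bst2 the GAS match at positions -136 to -128 overlapped the first ISRE match at -130 to -121.

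The Ifit genes, whose products bind foreign RNA, show elements shared between neighbours on chromosome 19. Ifit3 (chr19:34583365-34583424, plus strand) and its copy Ifit3b (chr19:34607761-34607820, plus strand) have the same 60 bases with 2 matches. Ifit1 (chr19:34640769-34640828, plus strand) and Ifit1bl2 (chr19:34640770-34640829, minus strand) start in opposite directions from one region, so the same 2 elements count in the windows of both.
Ifit3: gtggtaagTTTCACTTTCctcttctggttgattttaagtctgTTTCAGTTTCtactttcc
Ifit3b: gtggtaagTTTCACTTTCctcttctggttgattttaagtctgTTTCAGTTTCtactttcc
Ifit1: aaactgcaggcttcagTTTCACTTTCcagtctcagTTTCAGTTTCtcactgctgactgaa
Ifit1bl2: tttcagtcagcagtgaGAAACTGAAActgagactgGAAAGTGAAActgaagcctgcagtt

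Among the Ifi200 genes, which encode DNA-binding proteins of the nucleus and cytosol, 8 of 10 members with a window held the element. Ifi205 (chr1:174031855-174031914, minus strand), Ifi207 (chr1:173741816-173741875, minus strand) and Ifi211 (chr1:173913049-173913108, minus strand) are shown because their elements lie in like surroundings while their levels differ. Their places differed, at positions -134 to -125 in Ifi205, -41 to -32 in Ifi207 and -37 to -28 in Ifi211. Ifi205 also held a match on the opposite strand at bases 24 to 33 after the start. The level was 5.66 and 5.36 TPM for Ifi205, 1.66 and 1.66 TPM for Ifi207, and 0.93 and 0.31 TPM for Ifi211. The transcripts of Ifi211 share 78.9% of their 31-base words with other genes, most with Ifi205. The level of Ifi211 thus depends on how reads were divided.
Ifi205: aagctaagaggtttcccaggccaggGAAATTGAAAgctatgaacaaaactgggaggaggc
Ifi207: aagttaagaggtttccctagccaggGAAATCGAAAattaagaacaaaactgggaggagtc
Ifi211: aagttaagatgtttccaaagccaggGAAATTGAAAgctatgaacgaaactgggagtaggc

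By role, the ISRE lay in windows of 8 of 9 GTPases, 6 of 8 genes of the Ifit group, 4 of 8 Oas genes and 2 of 7 Ifitm genes, and among the regulators of 1 of 8 IRFs and 2 of 6 STATs. None of the 3 IRF2-binding proteins with a window held it. Irf2 was the IRF with an ISRE match, and Stat2 and Stat4 were the STATs. GAS matches lay in windows of 3 IRFs, namely Irf1, Irf2 and Irf8, and of 0 of 6 STATs. The GAS-matched stretches of Irf1 (chr11:53769898-53769957, plus strand) and Irf8 (chr8:120736170-120736229, plus strand) and the ISRE-matched stretch of Stat2 (chr10:128270251-128270310, plus strand) are shown as the elements of the regulators themselves.
Irf1: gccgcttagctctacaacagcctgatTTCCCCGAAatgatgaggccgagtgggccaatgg
Irf8: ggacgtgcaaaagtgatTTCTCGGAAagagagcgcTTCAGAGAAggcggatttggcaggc
Stat2: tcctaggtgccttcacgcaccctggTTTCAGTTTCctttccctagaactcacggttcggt

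Of the 33 members with an ISRE match, 31 had one wholly before the start. The match nearest to the start ended within 100 bases of it in 23 of these 31 and within 150 bases in 28, with a median distance of 55 bases. The median level of the members with the element was 0.93 TPM in replicate 1 and 1.00 TPM in replicate 2, beside 1.39 and 1.15 TPM in the 32 members with a window and no match. At 1 TPM or more in both libraries were 16 of the 33 with the element and 17 of the 32 without it. The members with a GAS match had a median of 3.22 TPM in replicate 1 and 3.40 TPM in replicate 2, beside 0.70 and 0.82 TPM in the 49 without one. No test was made of these medians, and the members with and without a GAS match differ in family make-up. The match lay in windows of 4 of 9 GTPases and 3 of 8 IRFs, beside 1 of 8 Oas genes, 1 of 10 Ifi200 genes and 0 of 6 STATs.

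**Figure D2:**
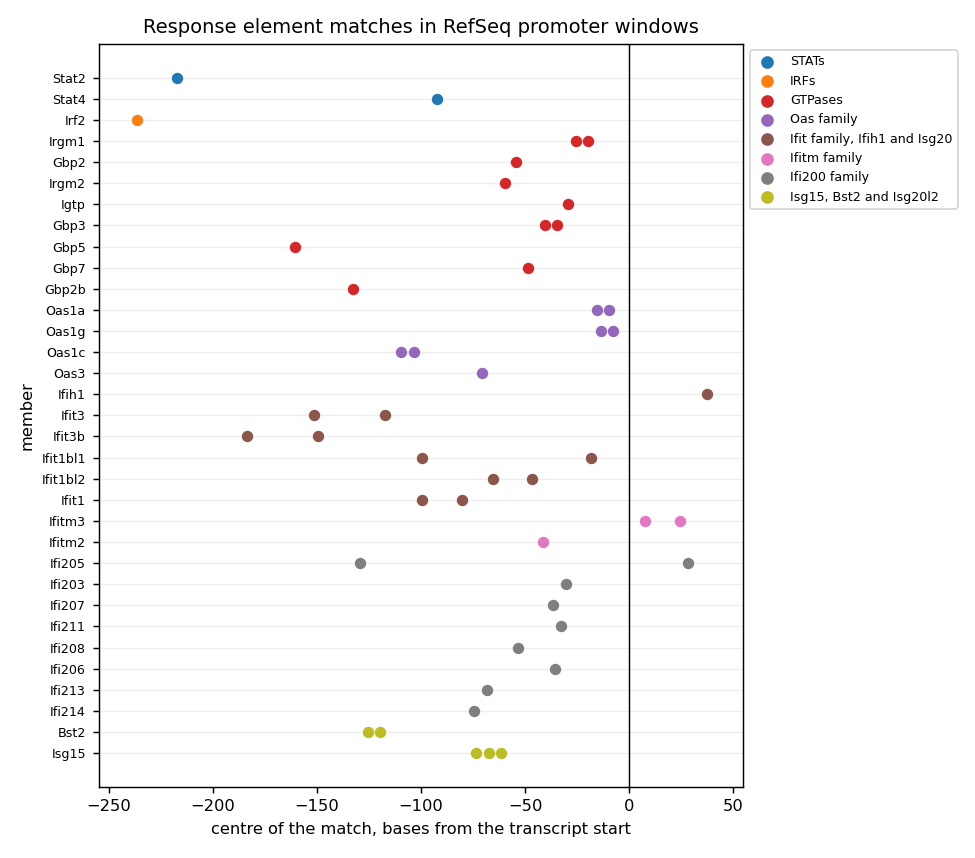
Centre of each ISRE match, in bases from the transcript start (vertical line), in the promoter windows of the 33 members that hold one, coloured by role. Most matches lie between the start and 150 bases before it, and both matches of Ifitm3 and the match of Ifih1 lie after the start.

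Before the members themselves, the ligands and receptors of the pathway set the frame. None of the 21 listed interferon ligands had a count in either library after rounding; 1 of them, Ifnz, was listed at 0.01 TPM in replicate 2. A count of 0 allows up to 3 counts, which is 0.0713 CPM (counts scaled by the library total) in replicate 1 and 0.0750 CPM in replicate 2. The receptors were read in both hearts, 5 of 6 at 1 TPM or more. Ifngr2, a chain of the interferon gamma receptor, had 46.98 and 56.21 TPM, and Il10rb, a chain shared by the interferon lambda and interleukin 10 receptors, 44.44 and 47.66 TPM. Ifngr1 had 13.46 and 14.33 TPM, and the type I receptor chains Ifnar2 and Ifnar1 had 9.60 and 10.33 TPM and 6.51 and 9.12 TPM. Ifnlr1, the chain specific to interferon lambda, had 0.68 and 1.11 TPM. All 4 Janus kinases were above 1 TPM, led by Jak1 at 30.07 and 31.36 TPM, with Jak2 at 5.58 and 6.29, Tyk2 at 2.99 and 3.10 and Jak3 at 2.72 and 2.84 TPM.

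The STATs included the highest regulators, and those described here kept a single order in both libraries and both quantifications. Stat3, which carries interleukin 6 family signals and has a large role in cardiac muscle (ENSMUSG00000004040.16, mm10 chromosome 11, 100885098 to 100939540), had 32.68 and 33.34 TPM. Stat5b, a mediator of growth hormone signals, followed at 22.59 and 22.21 TPM, and Stat6, a mediator of interleukin 4, at 14.95 and 14.79 TPM. Stat5a had 7.07 and 8.49 TPM. Stat2, which works with Irf9 in type I interferon signalling, had 2.49 and 3.64 TPM. Stat4, known from lymphocytes, had 0 and 4 counts and is listed at 0 and 0.13 TPM. No 2 of these neighbours in order had overlapping values. Of the 31-base words of its transcripts, Stat5b shares 15.2% with other genes and Stat5a 11.7%, each most with the other.

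Of the IRFs, 5 of 9 lay at 1 TPM or more in both libraries. Irf2, a repressor that competes with Irf1 for the same element (ENSMUSG00000031627.9, mm10 chromosome 8, 46739732 to 46847458), was highest at 12.05 and 9.84 TPM. Irf3, the latent factor that starts interferon production after virus sensing, had 8.09 and 8.11 TPM, and Irf1, an activator induced by interferon gamma, 6.05 and 6.01 TPM. In the second quantification Irf1 and Irf3 overlapped, at 7.97 and 6.34 TPM for Irf1 and 7.57 and 7.20 TPM for Irf3. Irf9, a DNA-binding partner of Stat2, had 2.94 and 2.24 TPM. Irf8, a factor of macrophage and dendritic cell lineages, had 1.40 and 1.28 TPM. Irf5, which acts below Toll-like receptors, had 1.38 and 0.82 TPM, and Irf7, the inducible amplifier of type I interferon, 0.81 and 1.09 TPM. Irf4, a lymphocyte factor, had 0.48 and 0.16 TPM. Irf8 and Irf5, and likewise Irf5 and Irf7, overlapped in their values over the libraries.

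**Figure D3:**
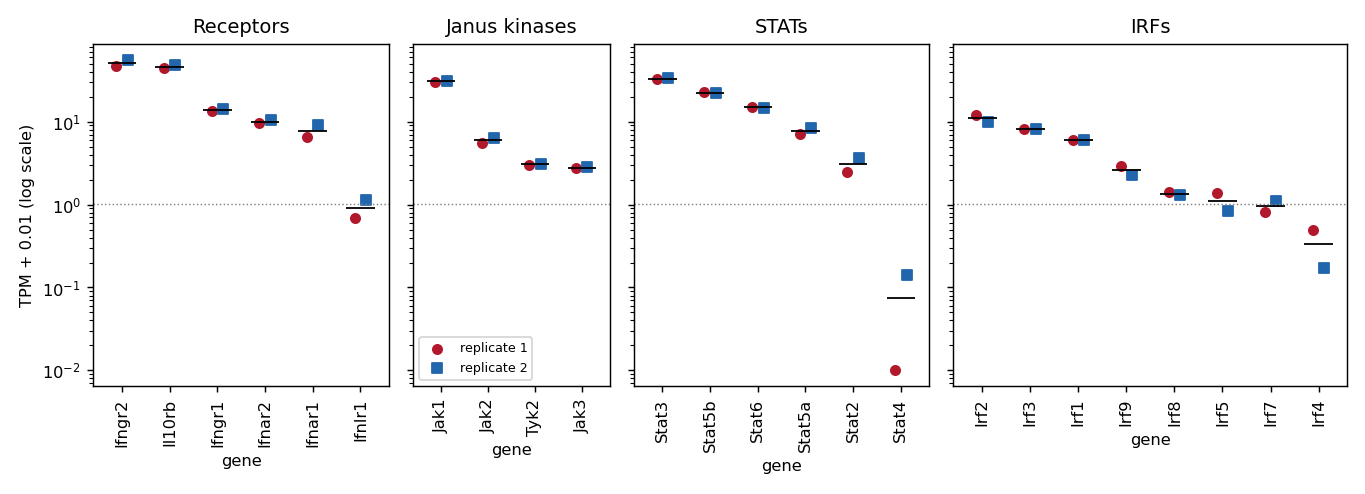
TPM plus 0.01 on a log axis of the interferon receptor chains, the Janus kinases, and the STATs and IRFs described here, each panel ordered by mean TPM. Red circles are replicate 1, blue squares replicate 2, black bars their mean, and the dotted line 1 TPM. Stat4 is listed at 0 TPM in replicate 1.

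The 3 IRF2-binding proteins, nuclear cofactors named for contact with Irf2, were all above 1 TPM. Irf2bp2, a corepressor (ENSMUSG00000051495.7, mm10 chromosome 8, 126588296 to 126593986), had 18.38 and 16.85 TPM, Irf2bpl 9.13 and 10.16 TPM and Irf2bp1 7.94 and 8.02 TPM. Without these 3 and Isg20l2, a nucleolar exonuclease at 3.42 and 3.27 TPM, 37 of 80 members lay at 1 TPM or more in both libraries (46.3%).

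Among the induced effectors, the Ifitm proteins, small membrane proteins that block virus fusion, gave the highest values. Ifitm3 (ENSMUSG00000025492.6, mm10 chromosome 7, 141009586 to 141010770) had 36.10 and 35.20 TPM, and Ifitm2 31.84 and 29.19 TPM. The other 5 Ifitm genes lay under 2 TPM in both libraries. Ifitm10 had 1.18 and 1.03 TPM, Ifitm1 0.55 and 1.48 TPM, Ifitm5, known from bone, 0.13 and 0.18 TPM, and Ifitm7 no count. Ifitm6 had 1.69 and 0.05 TPM and is taken up with the differences between the animals. Ifitm2 shares 55.5% of its 31-base words with other genes, most with Gm45717, so its level depends on how reads were divided.

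The 18 interferon-induced GTPases, which attack the membranes around intracellular microbes or, for Mx proteins, viral particles, were mostly read at a few TPM. Of these, 12 reached 1 TPM in both libraries and none reached 10 TPM, with a median of 2.69 TPM in replicate 1 and 2.85 TPM in replicate 2. The highest was Irgm1, a regulator of the immunity-related GTPases (ENSMUSG00000046879.7, mm10 chromosome 11, 48861968 to 48871683), at 4.63 and 4.46 TPM. Gbp6 had 4.66 and 3.65 TPM, Gbp2 4.32 and 3.87, Irgm2 3.96 and 3.83, and Igtp 3.50 and 3.68 TPM. These 5 overlapped in part, so their order is not fixed by these libraries. Mx2 had 1.15 and 1.14 TPM. Mx1, of which C57BL/6 mice carry a defective allele, had 0.59 and 0.50 TPM, with both parental alleles counted together. Of the 31-base words of Gbp6, 74.2% occur in other genes, most in Gm43302 (67.8%) and next in Gbp10. Of those of Gbp10, 89.8% occur in other genes, most in Gbp6 (80.8%) and next in Gm43302. How reads were divided among these genes is uncertain, and so are the 562 and 400 counts of Gbp6 and 19 and 11 of Gbp10.

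The Ifi200 genes lie side by side on chromosome 1, 11 genes within 563.3 kb, and 3 of 11 reached 1 TPM in both libraries. Ifi205 (ENSMUSG00000054203.7, 174011998 to 174031810) led, followed by Ifi203 at 4.93 and 4.73 TPM and Ifi207. Ifi204, a sensor of foreign DNA in macrophages, had 0.72 and 0.85 TPM. The remaining members of this locus went down to Ifi202b with 0 counts. The sum over the locus was 14.56 TPM in replicate 1 and 13.31 TPM in replicate 2. Ifi211 shares 78.9% of its words with other genes, most with Ifi205.

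The Oas genes had the lowest median of the roles, 0.135 TPM in replicate 1 and 0.075 TPM in replicate 2. The family is named for synthetases of the oligoadenylate that activates RNase L, an activity that not every member has. Of 12 Oas genes, 1 reached 1 TPM in both libraries: Oasl2 (ENSMUSG00000029561.17, mm10 chromosome 5, 114896936 to 114912234), at 1.49 and 1.10 TPM. Oas1b, Oas2, Oas1a and Oasl1 averaged 0.145 to 0.320 TPM. Oas1d, Oas1e, Oas1f and Oas1h had 0 counts in both libraries, and the 10 Oas genes in the chromosome 5 cluster summed to 1.04 TPM in replicate 1 and 0.84 TPM in replicate 2. Oas1a and Oas1g share 68.8% and 55.1% of their words with other genes, most with each other.

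In the group of Ifit genes, Ifih1 and Isg20, 3 of 8 reached 1 TPM in both libraries. Isg20, an RNA exonuclease, had 2.62 and 1.84 TPM, and Ifih1, the cytosolic sensor of long double-stranded RNA, 2.02 and 1.78 TPM. Ifit2 (ENSMUSG00000045932.12, mm10 chromosome 19, 34550694 to 34576419) had 1.13 and 1.20 TPM, Ifit3 0.64 and 1.00, Ifit3b 0.57 and 0.58, and Ifit1 0.39 and 0.31 TPM. Ifit3 and Ifit3b share 61.8% and 55.2% of their words with other genes, most with each other, so their levels depend on how reads were divided. Isg15 had 16 and 15 counts, or 0.70 TPM in both libraries. Bst2 had 4.69 and 5.24 TPM.

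The remaining Ifi genes were split. Ifi27, a small protein of mitochondria and nuclear envelope (ENSMUSG00000064215.13, mm10 chromosome 12, 103434211 to 103440239), had 21.85 and 19.71 TPM, and its neighbour Ifi27l2a 7.05 and 7.97 TPM. Ifi35, a leucine zipper protein, had 5.02 and 4.90 TPM. Ifi44 had 0.21 and 0.08 TPM and Ifi27l2b 0 and 0.03 TPM. Ifi27l2a and Ifi27l2b lie within 23.0 kb of Ifi27 on chromosome 12.

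Many members are neighbours in the genome. When genes no more than 1 Mb apart were joined, 65 members fell into 15 clusters and 19 stood alone. Stat5b, Stat5a, Stat3 and Ifi35 on chromosome 11 all lay above 1 TPM and summed to 67.36 TPM in replicate 1 and 68.94 TPM in replicate 2. The chromosome 3 cluster of Gbp5, Gbp7, Gbp3, Gbp2b and Gbp2 summed to 13.06 and 13.54 TPM, and the chromosome 5 cluster of 6 Gbp genes to 10.29 and 8.80 TPM. The 6 Ifit genes of the chromosome 19 cluster summed to 3.63 and 4.02 TPM.

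Inhibitors, sensors and other induced genes were read beside these members. Of 12 listed inhibitors of interferon signalling, 8 lay at 1 TPM or more in both libraries. Ptpn11, a phosphatase, had 65.21 and 62.66 TPM, and Cish, a target of Stat5 that damps cytokine receptors, 48.33 and 59.89 TPM. Pias1 and Pias2, which bind activated STATs, had 8.93 and 8.31 TPM and 7.62 and 7.62 TPM. Usp18 and Socs1, induced inhibitors, had 0.38 and 0.33 TPM and 0.11 and 0.14 TPM. Of 15 listed sensors and adaptors found in the tables, 9 reached 1 TPM in both, led by the mitochondrial adaptor Mavs at 28.16 and 25.85 TPM, followed by Tlr4, Traf3 and Tbk1. Ddx58, encoding RIG-I, had 2.21 and 2.77 TPM. Of 34 other interferon-induced effectors, 27 reached 1 TPM in both, with a median of 3.36 ± 0.127 TPM. Znfx1, Shisa5, Ube2l6 and Lgals3bp were the highest of these, from Znfx1 at 16.36 and 15.63 TPM to Lgals3bp at 8.69 and 8.85 TPM. Of 16 listed interferon gamma-induced chemokines and antigen-processing genes, 10 reached 1 TPM in both. Psme1, a proteasome activator subunit, had 96.79 and 116.65 TPM and B2m, the light chain of MHC class I, 88.86 and 63.84 TPM. Psme2 and Tapbp had 39.16 and 39.88 TPM and 38.84 and 39.80 TPM. Cxcl10, an early chemokine of the response, had 2 and 4 counts.

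Levels of these genes in the 2 animals were set against each other by counts. A gene was counted as differing on 3 conditions: 200 or more summed counts, a ratio of at least 2-fold after TMM scaling, and an exact interval of that ratio that excluded 1. The interval leaves 0.1% outside and covers counting error only. Of the 36 members with 200 or more counts, 0 differed, against 1.08% of mouse genes. At 1.5-fold, again 0 members differed, against 3.53%. With 36 genes this share is near the background and no result about the members. The ratios of the 36 members, replicate 1 over replicate 2, ran from 0.764 for Iigp1 (2.57 and 3.19 TPM, 233 and 294 counts) to 1.35 for Gbp6 (562 and 400 counts, interval 1.09 to 1.69).

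Over the 56 members with 50 or more counts, log2 ratios, replicate 1 over replicate 2, had a median of 0.08, and 36 (64.3%) were higher in replicate 1. Over nuclear protein-coding genes the median was -0.01 and 47.0% were higher in replicate 1. The interval excluded 1 for 6 of these 56 members at any fold, beside 16.4% of mouse genes: Stat5a, Irf2bp2, Stat3, Gbp6, Irf5 and Ifi211. Stat5a had 714 and 872 counts (ratio 0.789, interval 0.667 to 0.932), and Stat3 had 4296 and 3566 counts (ratio 1.16, interval 1.08 to 1.25). The TPM of Stat3, 32.68 and 33.34, stood on the other side of equality from its scaled counts, and its transcript shares also differed between the libraries.

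Among members with 50 or more counts, the largest ratios toward replicate 1 belonged to Ifi211, Irf5 and Irf4. Ifi211 had 55 and 17 counts (ratio 3.12, interval 1.28 to 8.85), Irf5 101 and 45 counts (ratio 2.16, interval 1.20 to 4.07) and Irf4 48 and 25 counts (ratio 1.85, interval 0.818 to 4.49). Ifit3 had the ratio farthest toward replicate 2 at 36 and 54 counts (0.642, interval 0.302 to 1.32), followed by Iigp1 (0.764) and Stat5a (0.789). With the minimum lowered to 50 counts, Ifi211 and Irf5 were counted as differing (2 of 56 members, against 2.31% of mouse genes). The counts of Ifi211 and Ifit3 also depend on how reads were divided among genes with shared sequence, mainly Ifi205 and Ifit3b. The intervals leave this out.

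Ifitm6, a gene of the bone marrow and myeloid lineage, had 34 counts in replicate 1 and 1 in replicate 2 (ratio 32.8, interval 2.86 to 67439). Gbp2b had 17 and 2 counts (ratio 8.19, interval 1.01 to 557). With no minimum of counts these 2 were also counted as differing, which made 4 of the 84 members, against 1.99% of mouse genes with a count. Of the 84 members, 6 had no count in either library and could not be called. Both added calls rest on few counts in replicate 2, and no result about the members is drawn from this share. Gbp2b was named after its values were seen. In the other direction Ifitm1 had 11 and 24 counts (ratio 0.442, interval 0.109 to 1.47).

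Several lists of blood and immune cell markers also summed to more in replicate 1, and the plasmacytoid dendritic cell list did not. The 6 neutrophil markers had 9.69 TPM in replicate 1 and 1.46 TPM in replicate 2 in sum, or 280 and 43 counts, with 5 of 6 higher in replicate 1 and Ly6g at 0 counts in both. The 8 macrophage markers summed to 128.81 and 70.73 TPM, of which Lyz2 (88.19 and 29.24 TPM) and Adgre1 (512 and 193 counts) were counted as differing, while 4 of 8 had the higher TPM in replicate 1 and the list's median was 6.975 TPM in replicate 1 and 6.965 TPM in replicate 2. The 6 B cell markers summed to 9.75 and 5.02 TPM, with all 6 higher in replicate 1, and the 7 T and NK cell markers to 2.62 and 1.47 TPM. The 5 erythroid markers summed to 11660 and 6319 TPM. The 6 plasmacytoid dendritic cell markers summed to less in replicate 1, at 37.83 and 46.62 TPM. Tcf4 alone gave 30.75 and 38.87 TPM of this sum, while Siglech had 5 and 8 counts and Ccr9 8 and 0. The other markers of that list, Bst2, Irf7 and Irf8, are themselves members. The 6 dendritic cell markers summed to 4.40 and 4.14 TPM, of which Zbtb46 gave 3.99 and 3.83 TPM. Of the pathway's inhibitors, Socs3, a feedback inhibitor of Stat3 signalling, differed, at 154 and 56 counts (ratio 2.65). The part of these cells in the ratios of Ifitm6, Irf5, Irf4 and Ifi211 was not tested.

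**Figure D4:**
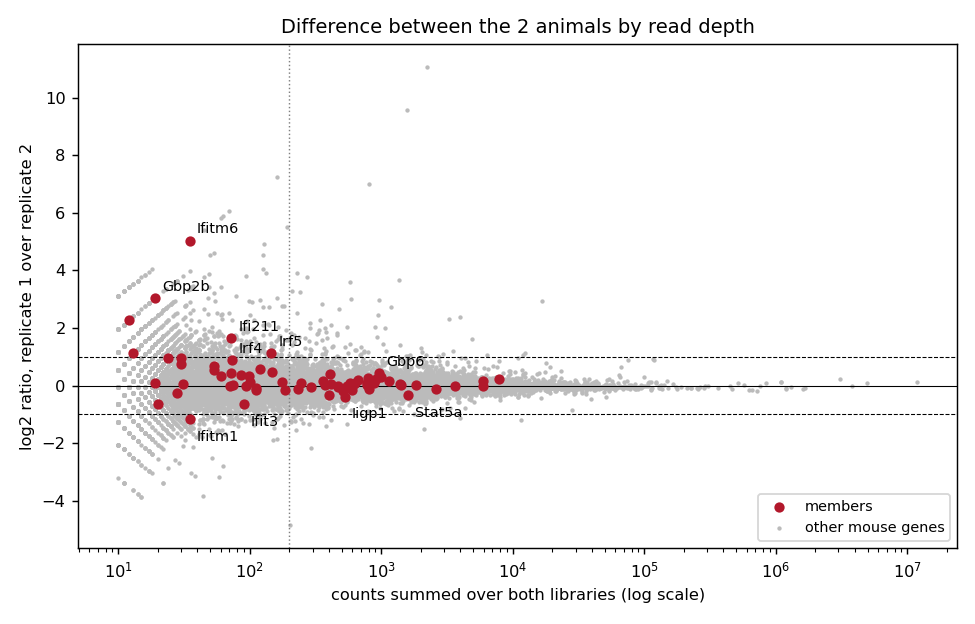
Log2 ratio of replicate 1 over replicate 2 against the counts summed over both libraries (log axis), for members in red and other mouse genes in grey, among genes counted in both libraries with 10 or more in sum. Dashed lines mark 2-fold and the dotted line 200 counts. Right of the dotted line the members lie between ratios of 0.764 and 1.35, and the labelled members with large ratios lie left of it.

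Transcript shares are the percent of a gene's TPM on each transcript, as deposited in the RSEM-layout tables. They were taken for the 10 members of highest mean TPM with 2 or more transcripts. Stat6-201 held 94.93% and 99.45% of its gene and Ifi205-201 98.48% and 97.89%, both protein-coding. Irf1-202 held 92.53% and 86.13%, against 60.3% in the second quantification. Stat3-203, protein-coding, held 79.48% in replicate 1 and 65.78% in replicate 2, and the second quantification gave 49.7%. The second quantification placed 25.7% on Stat3-214, a processed transcript that held 0.175 ± 0.247% in the RSEM-layout tables.

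For Ifi27 the leading transcript was Ifi27-209, annotated as a retained intron, at 34.99% and 41.54%. Noncoding models held 50.9% and 51.1% of Ifi27, and 44.7% in the second quantification, so about as much of its TPM lay on noncoding as on coding transcripts. Irf3 was alike, with noncoding shares of 48.2% and 50.7% and a retained intron, Irf3-207, in front at 25.92% and 27.91%. The second quantification gave a noncoding share of 26.5% for Irf3, with the protein-coding Irf3-202 in front at 38.0%. Stat5b-203, a processed transcript, held 26.85% and 23.39% of Stat5b. Total RNA libraries also hold unspliced RNA, and its part in these shares was not tested.

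Stat5a and Irf2 were divided among several protein-coding transcripts. Stat5a-201 held 29.49% and 52.02%, a difference between the libraries wider than for any other leading transcript of the 10 genes, and in the second quantification Stat5a-202 led at 38.4%. In the RSEM-layout tables Irf2-205 held 47.44% and 38.69% and Irf2-201 held 39.10% and 40.03%, so each led in 1 library. Irf2-201 led the second quantification at 45.1%. The leading transcript by mean share was the same in both quantifications for 7 of the 10 genes.

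**Figure D5:**
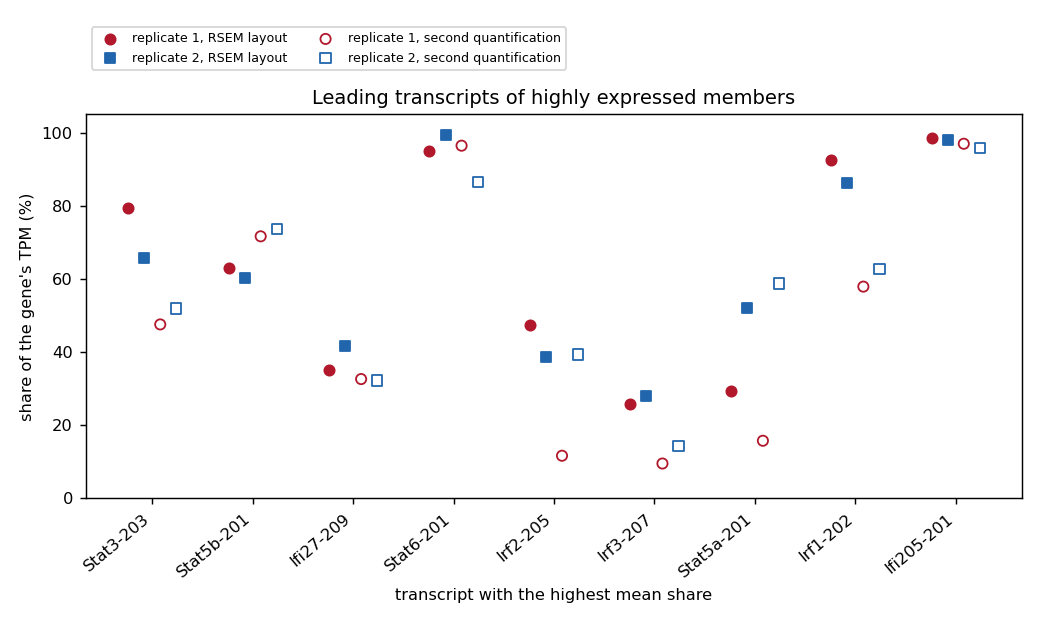
Share of the gene's TPM, in percent, held by the leading transcript of members among the 10 highest with 2 or more transcripts. Filled symbols are the RSEM-layout tables and open symbols the second quantification, circles replicate 1 and squares replicate 2. Stat6-201 and Ifi205-201 stay above 85% throughout, and Stat5a-201 differs most between the libraries.

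Gene levels were also set beside the second quantification. Of the 44 members at 1 TPM or more on average in either quantification, all 44 lay within 1.5-fold. The median ratio of the RSEM-layout mean over the second mean was 1.10. Among the 6 that differed most were Ifitm6 (ratio 0.743), Gbp4 (1.33), Ifitm2 (1.26), Stat5a (1.26) and Stat3 (0.798). Stat3 had 47.2 and 35.6 TPM in the second quantification, which put it above Ifitm3 at 32.8 and 30.4 TPM in both libraries. Ifitm7, with 0 counts in the RSEM-layout tables, had 0.236 and 0.783 TPM there.

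The members at 0 counts in both libraries were Ifi202b, Ifitm7, Oas1d, Oas1e, Oas1f and Oas1h. Each may have up to 3 counts at this depth. Both parental alleles were counted against the single reference mm10, and whether reads of CAST alleles were missed was not tested. Another 5 members had counts in only 1 library. In all, 48 of the 84 members had fewer than 200 summed counts, and for these the libraries could show only large differences between the animals.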

How the data were processed

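Total RNA of 2 mouse hearts was measured, 1 library per animal, and treated as 2 replicates of a single group. The authors deposited gene and transcript tables which, per the file headers, have the RSEM layout and hold expected counts, TPM and the percent share of each transcript. They also deposited a transcript table per library with estimated counts and TPM in the kallisto layout, here the second quantification. Per the labels and the deposited listings the tables use mm10 and GENCODE M21. The animals are hybrids with a CAST parent, and the effect of strain differences in sequence on the levels was not tested. Aligner and tool versions: not given in the sources used here. The gene tables also hold lower and upper TPM bounds on the signal scale, as deposited with no stated level; they served only as a check, since the TPM of 17 members lay under its own lower bound in a library.

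Expected counts were rounded to whole numbers. Libraries held 42.05 M and 39.98 M counts on mouse genes and were scaled by TMM in edgeR 4.0.16 over mouse genes. A ratio is replicate 1 over replicate 2 with an exact Clopper-Pearson interval that leaves 0.1% outside, and a count of 0 was set to 3 in a ratio. Medians of log2 ratios use members with 50 or more summed counts. These intervals cover counting error only, with no molecular identifiers to tell amplified copies apart, and leave out variation between animals. They also leave out how reads were divided among genes with shared sequence. Words of 31 bases were compared on the transcript strand. Alternatives were DESeq2 1.42.0 size factors, library and spike-in totals, other minimums and folds, the second quantification, TPM rescaled to nuclear protein-coding genes, and leaving out each replicate. Work was done in Python 3.11.15 and R 4.3.3.

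Named genes are up to 5 members of each role list by mean TPM, all STATs and IRFs, members that differ or have the 3 largest ratios each way, the 6 that differ most between quantifications, members at 0 counts, and up to 4 genes of each pathway list. Cell markers, Stat3-214, Ifnar1, Ifnlr1, Usp18, Socs1, Socs3, Ddx58, Cxcl10, Ifitm5, Mx1, Mx2, Ifit1, Oas1g, Gbp10, Gbp2b and the genes of the printed promoters were named beyond that rule, after their values were seen. Some members that the rule names are not reported here by name. The members and lists were chosen with earlier results of these data known.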

Additional observations from a re-analysis of the deposited data

How the results depend on the processing

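Members at 1 TPM or more in both libraries, 41, ranged from 33 to 53 over the alternatives, and leaving out either replicate gave 44. The median TPM over members, 1.10, was 1.03 in the second quantification, 3.04 with TPM rescaled to nuclear protein-coding genes, 0.958 without Irf2bp1, Irf2bp2, Irf2bpl and Isg20l2, and 2.02 over members with 10 or more summed counts; leaving out a replicate gave 1.06 to 1.14. Members counted as differing stayed at 0 under other scalings, at 1.5-fold and in the second quantification, and were 2 with a minimum of 50 counts and 4 with none. The median log2 ratio over members stayed positive, from 0.03 to 0.12. The share of promoter windows with an ISRE match was 42.5%, against 3.44% of all windows, and 46.3% with GAAANNGAA, against 8.56%. It was 50.8% counted by genes (added after seeing the data) and 27.5% on the gene's strand alone, against 1.74% of all windows. Leading transcript shares moved by more than their SD in the second quantification for 8 of 10 genes. No paired analysis was possible because the series holds a single group. Depth limits the 48 members under 200 counts, and 2 libraries give no test of any level.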
